A study of Mus musculus with 32 samples.

Results

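The genes described here are 46 mouse splicing factors, selected by name: the SR proteins and their Tra2 relatives (12 genes), proteins bound to the U1 particle (5), proteins of the tri-snRNP, the B complex and the Prp19 complex (10), proteins that act at the branch point with U2 (6), proteins of the minor spliceosome (2), arginine- and serine-rich proteins of nuclear speckles (6) and RNA-binding proteins of the RBM group (5). All 46 were present among the 46165 gene records of each table, of which 18853 had an exon read in some library, and all 46 passed the filter on low counts. The lungs came from C57BL/6 pups, in 8 groups of 4 libraries, and the series as a whole asked what control injections do to gene expression in the developing lung.

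At postnatal day 14 the groups were untreated pups, pups given saline intraperitoneally at 25 µl per g on every day from day 1 to day 13 (daily saline), pups given nuclease-free water at 10 µl per g on days 1 and 3 (water), and pups given either of 2 non-targeting LNA antagomiR controls, Scrambled 1 and Scrambled 2, at 10 mg per kg in such water on days 1 and 3. An antagomiR is a modified oligonucleotide made to block a microRNA, and a scrambled one has no intended target. At postnatal day 6 the groups had been injected on days 1 and 2 with 25 µl of saline, 25 µl of Miglyol (a medium-chain triglyceride oil, also spelled Migloyl in the labels) or 0.4 mg of tamoxifen in 25 µl of Miglyol. The lungs were perfused through the heart before RNA extraction. Pups of the 2 ages were killed with different agents, pentobarbital at day 6 and isoflurane at day 14.

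Splicing removes introns from the primary transcript. The U1 particle marks the start of an intron, U2 and its SF3B proteins bind the branch point, and the tri-snRNP then joins to build the catalytic spliceosome, while a separate minor spliceosome handles a small class of introns. SR proteins bind exons and recruit these particles, and many genes that encode splicing factors keep introns or splice in poison exons in their own transcripts, which lowers the amount of protein they make. In the lung after birth, splicing factors are expressed in all cell types, so a bulk value is a sum over epithelial, endothelial, stromal and blood cells, and fewer cells of a type cannot be told apart from less RNA per cell.

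Each library held 7918537 to 12443221 reads assigned to exons, and 87.5 to 90.9% of those were uniquely assigned. Lung markers were present in all libraries (0 of 9 at 0). Water replicate 3 stood apart with a summed level of skeletal muscle markers of 311 CPM (exon reads scaled to library size), against 17.4 to 36.5 CPM in the other water libraries, and with 371 CPM of adipose markers against 9.11 to 27.3. Xist was above 100 CPM in 3 of 4 untreated, 2 of 4 daily saline and 0 of 4 water libraries and in 1 or 2 of 4 in each of the other 5 groups, so these 3 groups differed in Xist. The labels do not tie the samples of a group to separate pups, and the spread that p-values measure may therefore be technical.

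The share of reads in genes that fell in introns differed between groups and is given here for each group. It averaged 10.0% ± 1.04 (SD, n = 4) in the daily saline libraries, with a range of 8.69 to 11.2%. It was 12.7% ± 1.95 in untreated libraries (10.9 to 15.5%), 14.1% ± 1.42 in water (12.9 to 16%), 13.9% ± 0.625 in Scrambled 1 and 12.4% ± 1.15 in Scrambled 2. At day 6 it was 15.1% ± 0.898 in saline, 13.1% ± 1.25 in Miglyol and 13.3% ± 1.33 in tamoxifen. The daily saline libraries were thus below all 4 water libraries and overlapped the untreated ones.

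The 46 genes together took about 1% of all exon reads. Their share was 0.964% ± 0.0573 (SD, n = 4) in untreated lungs, 0.810% ± 0.0226 in daily saline, 0.987% ± 0.0548 in water, 0.933% ± 0.0291 in Scrambled 1 and 0.911% ± 0.0554 in Scrambled 2. At day 6 it was 1.06% ± 0.0549 in saline, 1.05% ± 0.0163 in Miglyol and 1.06% ± 0.0183 in tamoxifen. On this unscaled share, the highest daily saline library (0.832%) was below the lowest library of any other group (0.840%, in Scrambled 2). On the TMM-scaled CPM used below, Scrambled 2 and daily saline overlapped. There the summed level of the 46 genes was 8573 CPM in the highest daily saline library and 8536 CPM in the lowest Scrambled 2 library.

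**Figure D1:**
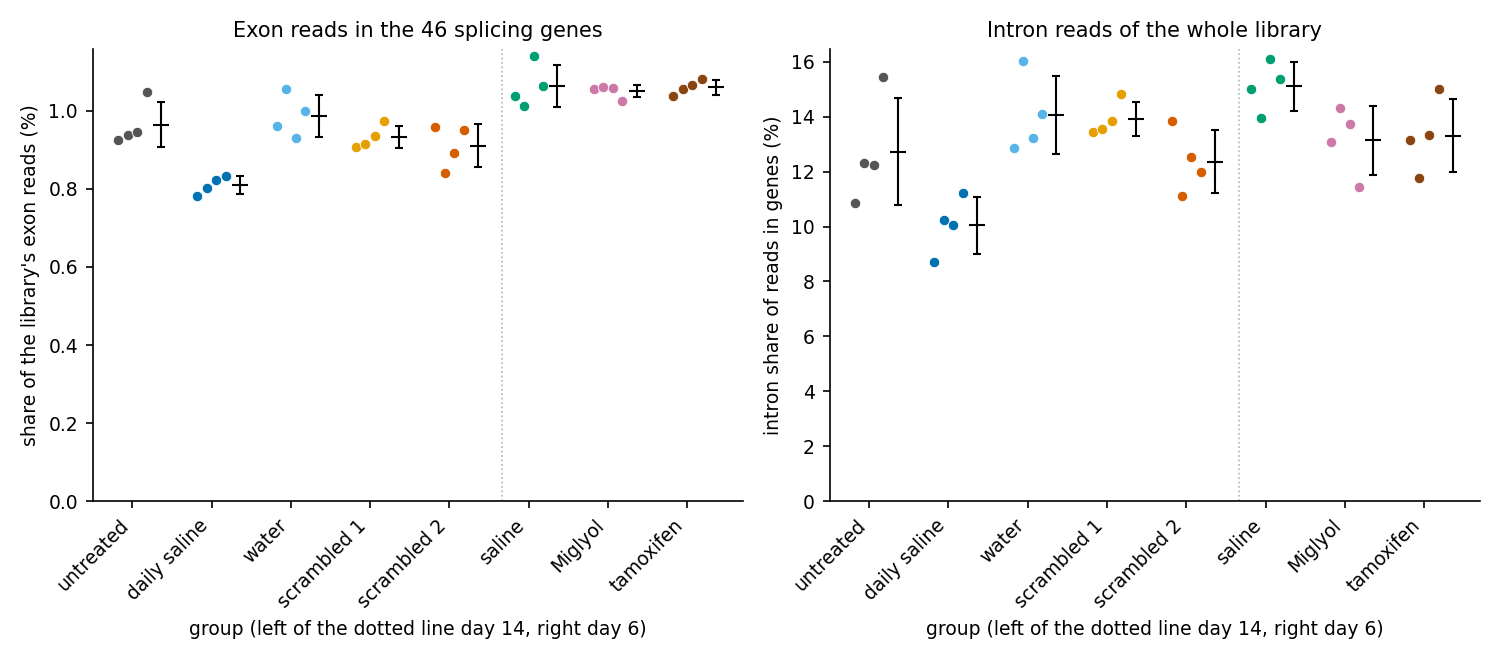
Share of each library's exon reads that fell in the 46 splicing genes (left, percent) and share of all reads in genes that fell in introns (right, percent), 1 point per library, with group mean and SD (n = 4); groups left of the dotted line are day 14 and those right of it day 6. On the left, without TMM scaling, the 4 daily saline points, at 0.781 to 0.832%, sit below all the others. On the right they lie at 8.69 to 11.2%, below all water points and overlapping the untreated ones.

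Per length, on the authors' TPM scale, which corrects for transcript length, the most abundant members were the SR proteins Srsf5 (672 ± 74.1, SD over 32 libraries), Srsf3 (335 ± 51.8) and Srsf2 (260 ± 36.3), followed by Srsf6 (239 ± 29.1), the U1 protein Snrnp70 (236 ± 29.1), Rbm39 (224 ± 20.5) and Arglu1 (222 ± 26.9). The least abundant were Prpf3 (27.5 ± 2.77), Prpf31 (27.4 ± 2.66) and Prpf4 (16.7 ± 1.75), all of the tri-snRNP, and Rbm4b (15.5 ± 2.48) and Rbm4 (2.76 ± 1.02). In 14 members under 90% of exon reads were unique (called shared reads below): U2af1, Srsf5, Srsf4, Rbm4, Prpf39, Srsf10, U2af2, Rbm4b, Srsf3, Tra2b, Prpf31, Son, Luc7l3 and Srsf2. Their levels are less certain than those of the other 32 genes.

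The share of a gene's reads that fell in introns varied widely among the members. The mean intron share was above the libraries' mean of 13.1% in 29 of 46 members (63.0%), at least 20% in 22 (47.8%) and at least 40% in 5 (10.9%), against 55.6%, 36% and 9.9% of the 14313 genes tested that had a read in every library. The highest were the minor spliceosome protein Snrnp48, with 60.8% (49.9 to 65.0% over 32 libraries), and the speckle protein Arglu1, with 55.7% (50.7 to 60.5%). U2af1 (47.2%, shared reads), Snrnp70 (45.5%), Tra2a (42.2%) and Srsf5 (36.6%, shared reads) followed, and Srsf2 was lowest with 0.075%. In the daily saline lungs Snrnp48 was at 56% ± 4.85 (SD, n = 4), against 59.8% ± 3.24 in untreated and 63.3% ± 1.97 in water lungs, whereas Arglu1 was at 54.9% ± 2.26, 54.5% ± 3.97 and 56.7% ± 2.42 in the same order. For Snrnp48 the daily saline libraries overlapped with the untreated ones and lay below all water ones, and for Arglu1 the 3 groups overlapped. The GENCODE M21 annotation held a transcript labelled as retained intron for 41 of 46 members (89.1%), against 49.8% of 17341 protein-coding genes with an exon read. Of these, 7228 had at least the lowest exon total of any member except Rbm4, and the share among them was 66%. That limit is a floor and does not match the levels of the members. The members also had more annotated transcripts, with a median of 8.5 against 4 and 6 in these 2 sets. A transcript labelled as a target of nonsense-mediated decay was annotated for 33 members (71.7%), against 24.1% and 30.8%.

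The members lie on many chromosomes, and coordinates here are those of the deposited tables, which fit GRCm38: the start of 45 of 46 members lay within 5 kb of the RefSeq start in GRCm38.p6. The 4 members with the smallest p-values in the comparison of daily saline with untreated lungs were Prpf38b (gene 66921, chr3:108902807-108911752, minus strand), a protein of the B complex; Rnpc3 (gene 67225, chr3:113605067-113630149, minus strand), a protein of the U11/U12 particle of the minor spliceosome; Pnisr (gene 66625, chr4:21847583-21876475, plus strand), an arginine- and serine-rich protein; and Luc7l3 (gene 67684, chr11:94291139-94321983, minus strand), a LUC7 protein of U1. RefSeq promoters were available for 42 members. The last 150 bases before the start in the RefSeq promoter entry are shown for 3 of these genes. They are also shown for 2 members whose exon reads did not pass the test in that comparison (Snrnp200 and Prpf19). These genes serve as examples only. Prpf19 has 2 RefSeq entries, of which 1 is shown. For Prpf38b and Luc7l3 the start of the entry lies inside the gene coordinates given above, so the printed stretch overlaps the gene. Capitals mark matches to CCGGAAG, a core of ETS factor sites, and to CCAAT, on either strand (CCAAT reads ATTGG on the other strand).
Prpf38b, chr3:108911730-108911879, minus strand: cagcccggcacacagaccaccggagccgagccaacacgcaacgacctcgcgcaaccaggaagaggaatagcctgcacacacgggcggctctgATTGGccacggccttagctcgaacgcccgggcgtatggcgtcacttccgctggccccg
Rnpc3, chr3:113630150-113630299, minus strand: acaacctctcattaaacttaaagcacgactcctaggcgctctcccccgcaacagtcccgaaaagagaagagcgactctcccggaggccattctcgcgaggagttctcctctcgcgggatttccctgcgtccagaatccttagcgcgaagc
Luc7l3, chr11:94321964-94322113, minus strand: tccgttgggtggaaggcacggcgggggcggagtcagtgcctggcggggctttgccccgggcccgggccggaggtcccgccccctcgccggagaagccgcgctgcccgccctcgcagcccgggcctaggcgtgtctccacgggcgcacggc
Snrnp200, chr2:127208236-127208385, plus strand: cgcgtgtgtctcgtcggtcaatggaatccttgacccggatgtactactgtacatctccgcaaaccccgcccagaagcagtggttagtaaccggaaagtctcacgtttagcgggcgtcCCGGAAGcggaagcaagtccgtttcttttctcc
Prpf19, chr19:10895081-10895230, plus strand: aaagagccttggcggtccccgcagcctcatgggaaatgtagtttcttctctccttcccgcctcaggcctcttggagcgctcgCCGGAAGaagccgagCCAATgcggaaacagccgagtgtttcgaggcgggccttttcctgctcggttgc
All are GRCm38.p6 from RefSeq and are written 5′ to 3′ toward the gene. Within 250 bases before the start, CCGGAAG was found in 10 of the 42 members (23.8%: Prpf19, Prpf3, Prpf4b, Sf3b2, Sf3b3, Snrnp200, Srsf11, Srsf4, Srsf5 and Srsf7), against 7.83% of all genes with a promoter. Srsf11 among them passed the test in that comparison, with lower exon reads in daily saline. The Prpf19 entry not shown has no match to CCGGAAG or CCAAT in its last 150 bases. Motifs were not compared between members that passed and the others. CCAAT was found in 20 (47.6%, against 37.5%) and TATAAA in 6 (14.3%, against 14.3%). TGACGTCA, a CREB site, was found in 1 (2.38%, against 1.77%). All motifs were searched on both strands, and matches may overlap. The median share of G and C in these 250 bases was 58.8% in member promoters and 52.4% in all promoters. Its part in the motif counts was not tested.

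Daily saline lungs had lower exon levels of 11 of the 46 splicing genes than untreated lungs, and none was higher. The first 4 were Prpf38b, Rnpc3, Pnisr and Luc7l3, and the other 7 were Rbm39, a splicing coactivator, its fellow RBM protein Rbm4b, the speckle protein Arglu1, the U1 proteins Prpf39 and Luc7l, and the SR proteins Srsf6 and Srsf11. The background was 0.233% of 14179 genes called in either direction, 0.212% lower and 0.0212% higher (edgeR quasi-likelihood test, Benjamini-Hochberg adjusted p under 0.05 over all genes). These 11 members were a large part of the 30 genes called lower in all. The list was chosen with earlier results of these data known, so the counts of members called, here and below, are not independent of these data.

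Prpf38b was at 160, 176, 179 and 194 CPM in the untreated libraries and at 127, 133, 136 and 136 CPM in the daily saline libraries. All daily saline values lay below all untreated ones, and the log2 fold change was -0.42 (SE 0.06, adjusted p = 0.00221). Rnpc3 was at 50.6, 52.2, 51.9 and 59.9 CPM in untreated and at 38.2, 38.2, 37.9 and 42.6 CPM in daily saline lungs. The groups did not overlap, with replicate 4 the highest of each (log2 fold change -0.45, SE 0.08, adjusted p = 0.0202). Pnisr was at 215, 234, 235 and 280 CPM in untreated and at 160, 176, 181 and 186 CPM in daily saline lungs, again without overlap (-0.46, SE 0.08, adjusted p = 0.0277). Luc7l3, which has shared reads, was at 239, 260, 245 and 308 CPM against 175, 174, 196 and 194 CPM, also without overlap (-0.51, SE 0.10, adjusted p = 0.0340). In all 4 genes the daily saline libraries lay in a narrow band under the untreated ones, and untreated replicate 4 was the highest library of its group.

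**Figure D2:**
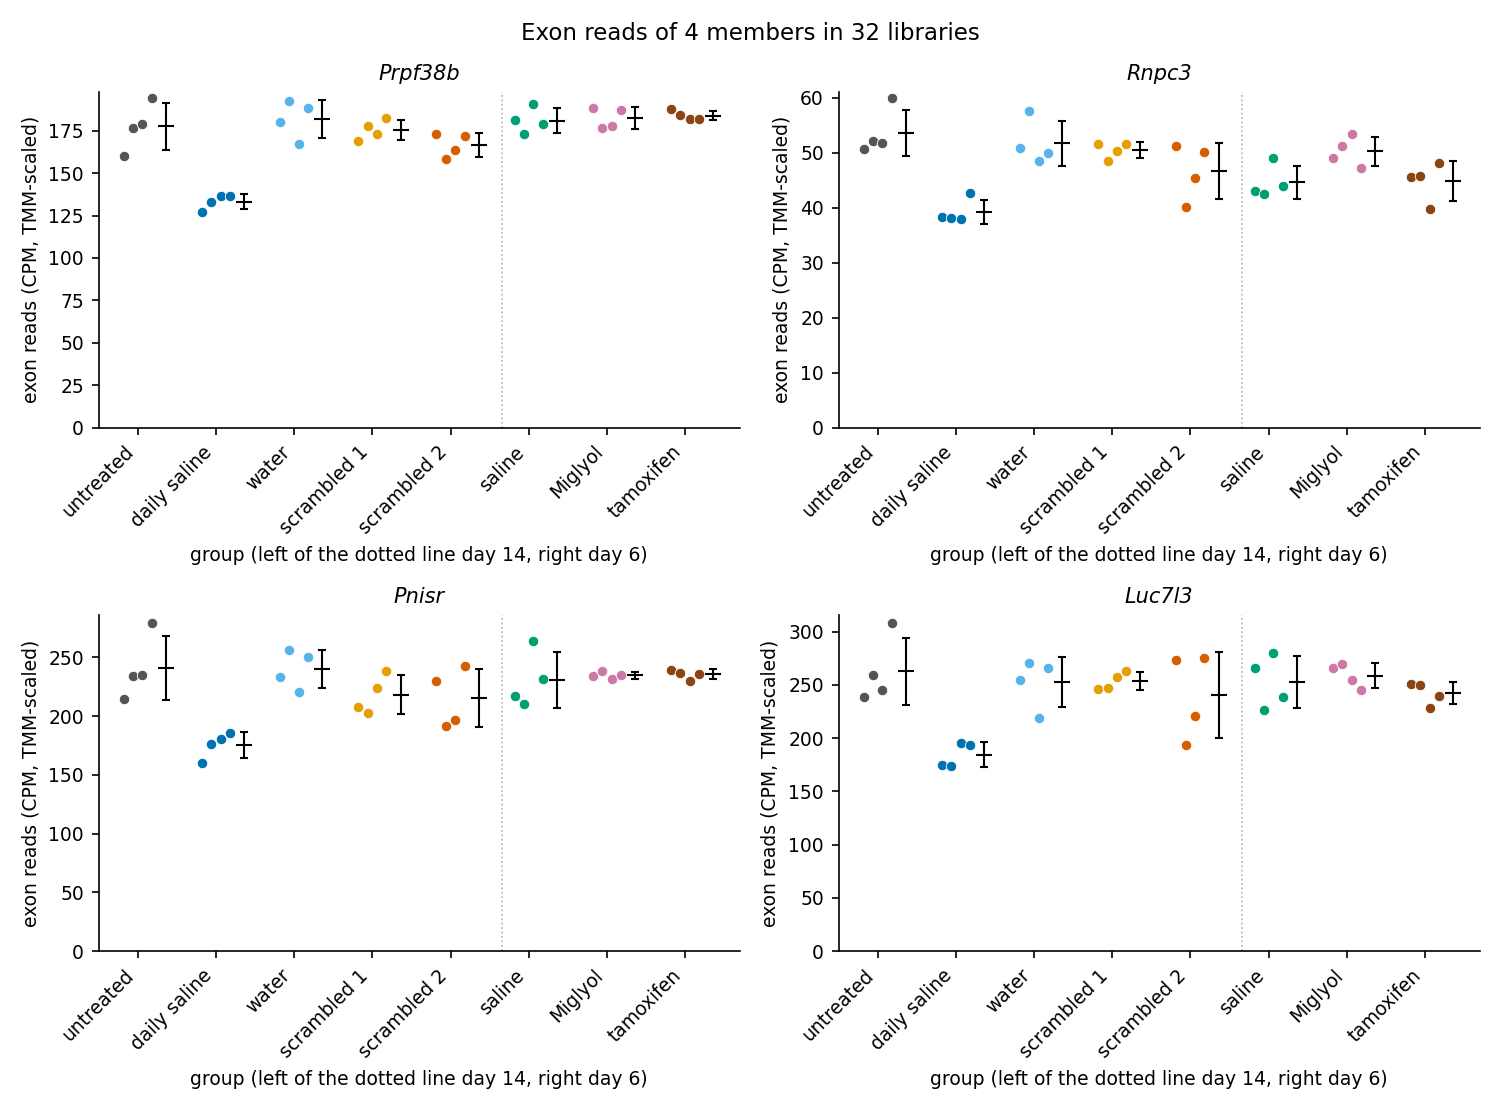
Exon reads (CPM, TMM-scaled) of Prpf38b, Rnpc3, Pnisr and Luc7l3 in all 32 libraries, 1 point per library, with group mean and SD (n = 4); groups left of the dotted line are day 14 and those right of it day 6. Daily saline is the lowest group in each panel, with Prpf38b at 127 to 136 CPM against 160 to 194 CPM in untreated and 167 to 193 CPM in water lungs.

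Among U1 proteins 3 of 5 fell (Luc7l3, Prpf39 at -0.44 and Luc7l at -0.30), with a median log2 fold change of -0.30 and all 5 below 0. Of the minor spliceosome proteins 1 of 2 fell (Rnpc3; Snrnp48 was at -0.33 without passing), of the speckle proteins 2 of 6 (Pnisr and Arglu1 at -0.44, median -0.34) and of the RBM proteins 2 of 5 (Rbm4b at -0.51 and Rbm39 at -0.30, median -0.32). Among SR proteins and Tra2, 2 of 12 fell (Srsf6 at -0.28 and Srsf11 at -0.32), with a median of -0.20 and a range from -0.32 in Srsf11 to 0.09 in Srsf9. None of the 6 branch point proteins passed (median -0.09, from Sf3b1 at -0.23 to Sf3b2 at 0.05), and of the 10 proteins of the tri-snRNP, B complex and Prp19 complex only Prpf38b did (median -0.01, 5 of 10 above 0, highest Prpf4 at 0.07). Over all 46 the median was -0.22, against 0.00 over all genes tested, and 39 lay below 0. The groups did not overlap, with daily saline lower, for 25 members (3.75% of all genes), and for 0 with daily saline higher (2.91%).

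Leaving out any 1 of the daily saline or untreated libraries gave 1 to 4 called members, and only Prpf38b passed each time (highest adjusted p 0.0350). With the intron share of the library as a covariate 0 members and 0 genes passed, 35 members stayed below 0, the median was -0.13 and the 11 genes lay between -0.35 and -0.17. In that fit 21 of the 46 members had an unadjusted p under 0.05.

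Against the water lungs, 20 of the 46 genes were lower in daily saline and none was higher, where 2.74% of all genes were called in either direction, 1.71% lower and 1.04% higher. Both comparisons share the daily saline libraries, so they are not independent, and their values are given side by side. Prpf38b was at 180, 193, 167 and 188 CPM in water, with no overlap with daily saline (log2 fold change -0.45, SE 0.06, adjusted p = 0.000335). Pnisr was at 233, 257, 221 and 250 CPM in water (-0.45, SE 0.08, adjusted p = 0.00775). Rnpc3 was at 51.0, 57.7, 48.5 and 49.9 CPM (-0.40, SE 0.07, adjusted p = 0.0103). None of the 3 genes overlapped with daily saline, and their water values lay within the untreated range, except for the 2 lowest of Rnpc3. Rbm4b, an RNA-binding protein with shared reads, was at 46.7, 53.9, 41.2 and 46.9 CPM in water, at 44.8, 40.4, 46.1 and 55.9 CPM in untreated and at 29.7, 33.1, 34.3 and 34.2 CPM in daily saline lungs. Its daily saline libraries were below all others of both groups (-0.52, SE 0.10, adjusted p = 0.0130 against water; -0.51, SE 0.10, adjusted p = 0.0359 against untreated).

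All 5 U1 proteins fell against water (median -0.34, from Luc7l3 at -0.45 to Luc7l at -0.25), and Snrnp70 and Luc7l2 were among them. Of the speckle proteins 5 of 6 fell: Pnisr, Arglu1, Srrm1 and both large speckle scaffolds, Srrm2 (-0.53) and Son (-0.44, shared reads), with only Rsrc2 not passing (-0.13). Srrm2 was at 780, 983, 823 and 911 CPM in water and at 520, 616, 612 and 681 CPM in daily saline lungs, without overlap, while the untreated lungs, at 633, 729, 716 and 1033 CPM, overlapped with daily saline. Of the RBM proteins 3 of 5 fell (Rbm4b, Rbm39 and Rbm25), of the SR proteins and Tra2 4 of 12 (Tra2a, Srsf11, Srsf6 and Srsf1, median -0.21), of the branch point proteins 1 of 6 (the helicase Ddx46, -0.22), of the minor spliceosome 1 of 2 (Rnpc3) and of the tri-snRNP class again Prpf38b alone of 10 (median -0.05, highest Prpf19 at 0.04). Prpf8, at the centre of U5, was at 0.04 and 0.01, and Snrnp200, the helicase that unwinds U4 from U6, at 0.02 and -0.14, in the order untreated and water, and neither gene passed in either comparison. Over the 46 members the median was -0.22 against -0.00 over all genes, and 26 did not overlap with daily saline lower (5.88% of all genes) and 0 with daily saline higher (5.46%). Lymphocyte markers moved with this comparison: 4 of 6 were lower in daily saline, and their summed level was 65.3 to 86.7 CPM in daily saline, 93.9 to 110 CPM in water and 75.7 to 91.0 CPM in untreated libraries. None of the 6 was at 0, and their part in the result was not tested.

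**Figure D3:**
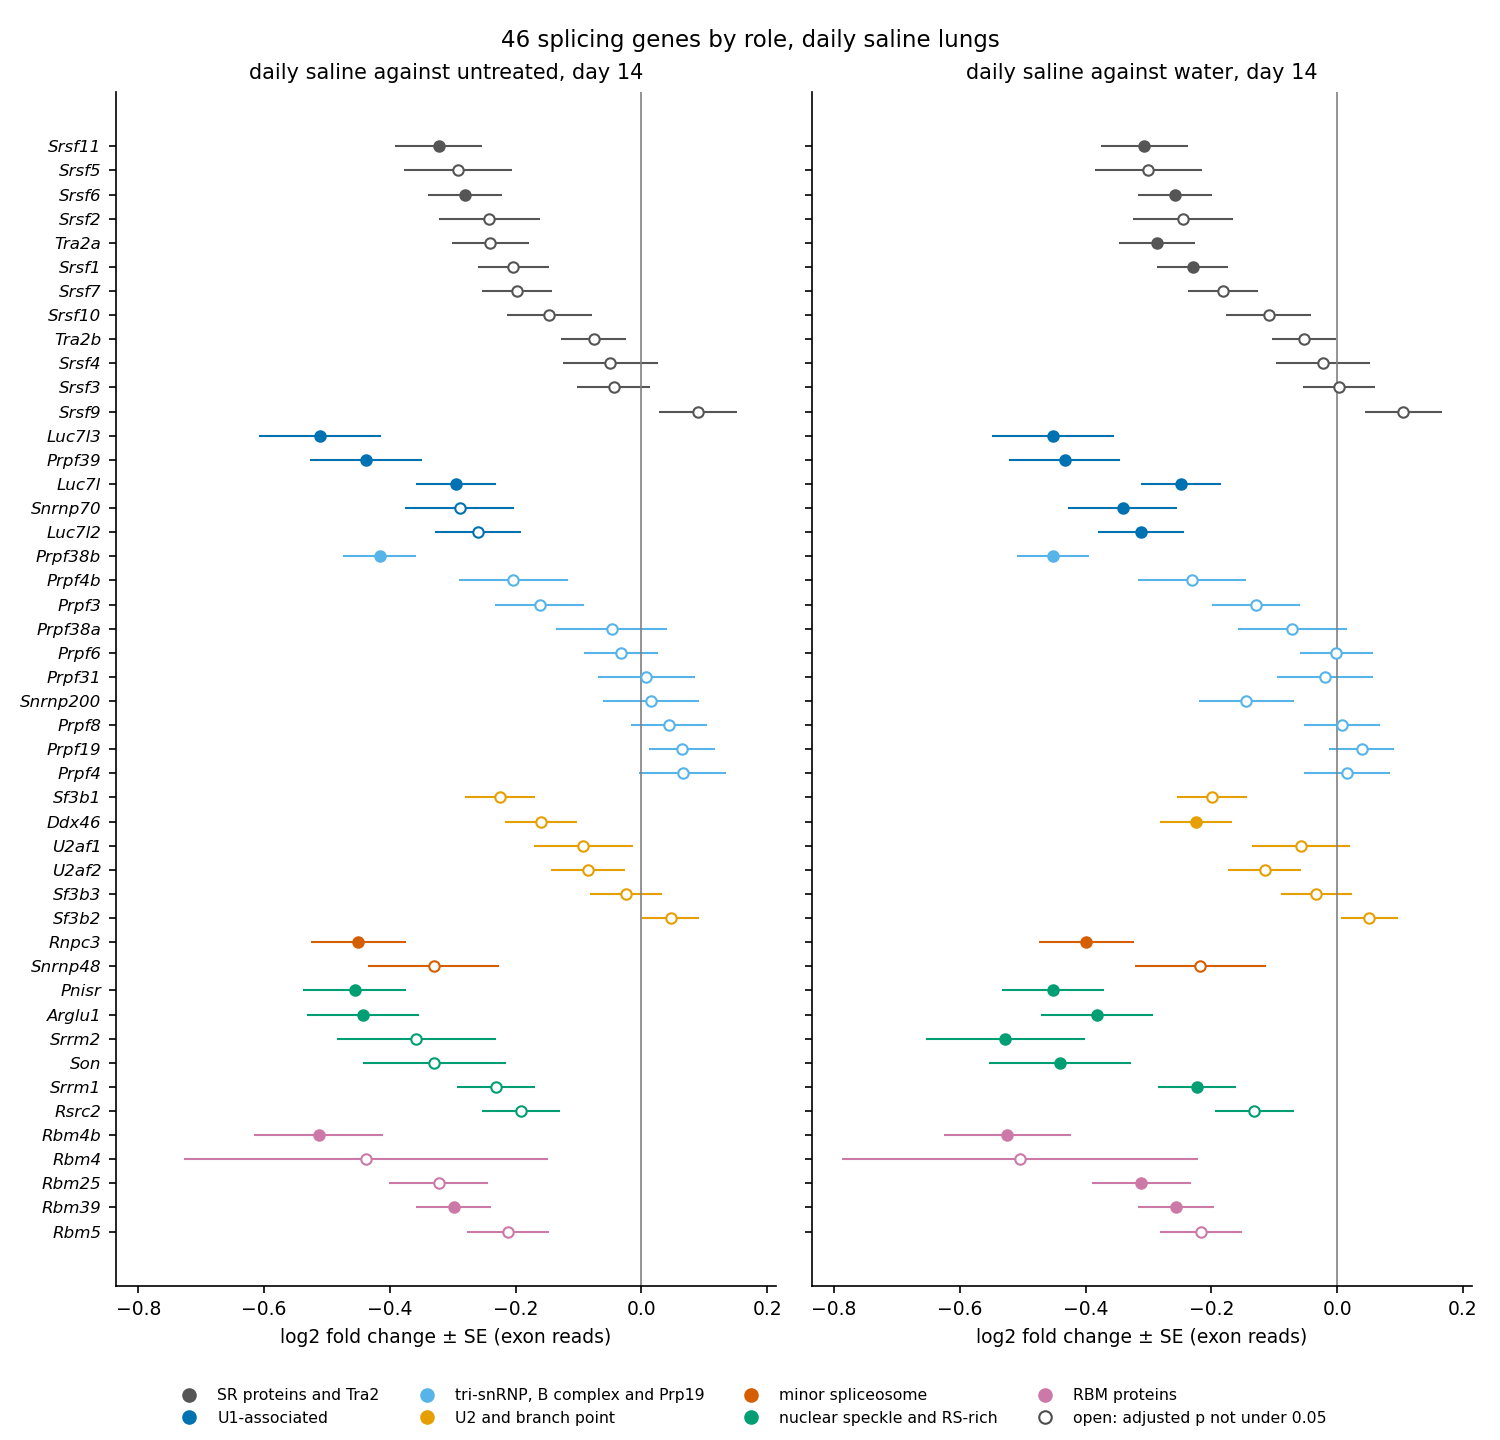
Log2 fold change ± SE of exon reads for the 46 splicing genes, daily saline against untreated (left) and against water (right), coloured by role; filled points passed the adjusted p of 0.05 and open points did not. Both panels share the daily saline libraries. The U1, speckle and RBM proteins lie left of 0 in both panels, and most tri-snRNP proteins other than Prpf38b lie near 0.

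The count against water fell to 1, 4, 10 and 10 without daily saline replicates 1, 2, 3 and 4, and to 18, 5, 18 and 8 without water replicates 1 to 4, so that without water replicate 3, the library with muscle and adipose markers, 18 members still passed; Prpf38b passed in all 8. With the intron share of the library as a covariate 0 members passed, and 17 of the 20 genes kept their direction at a smaller size. In that fit 4 of the 46 members had an unadjusted p under 0.05. The intron share did not overlap between the daily saline and water libraries. This fit takes its slope from differences within the day 14 groups and extends it across that gap. It therefore cannot securely tell the group and the intron share apart. With Xist as a covariate 7 members passed against untreated and 15 against water.

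Water itself and the scrambled antagomiRs left the splicing genes without a call. Against untreated lungs, 0 of 46 passed in water lungs (0.0494% of all genes), 1 had an unadjusted p under 0.05, and the member median was -0.00. Snrnp200 had the smallest p, with 119, 129, 136 and 159 CPM in untreated and 146, 153, 133 and 175 CPM in water lungs, overlapping ranges and a log2 fold change of 0.16 (SE 0.08, adjusted p = 0.612). Srrm2 was next, with 633 to 1033 CPM in untreated and 780 to 983 CPM in water lungs (0.17).

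Scrambled 1 against water gave 0 calls (0.12% of all genes), 2 unadjusted p under 0.05 and a median of -0.06. The helicase Ddx46 was at 122, 139, 117 and 130 CPM in water and at 107, 116, 114 and 122 CPM in Scrambled 1 (log2 fold change -0.15, SE 0.06, adjusted p = 0.349). The ranges overlapped, as did those of Snrnp200, at 131, 139, 139 and 129 CPM in Scrambled 1 (-0.18, SE 0.08, adjusted p = 0.393). Scrambled 2 against water also gave 0 calls (0% of all genes with edgeR, 755 genes at an unadjusted p under 0.05, and 5 genes but 0 members with DESeq2). Snrnp70, the protein that binds U1 RNA, was at 226, 231, 241 and 241 CPM in water and at 195, 163, 192 and 250 CPM in Scrambled 2 (-0.23, SE 0.09, adjusted p = 0.920), and Rbm4b was at 44.6, 32.6, 38.9 and 42.2 CPM in Scrambled 2 (-0.26). For both genes the 2 groups overlapped. Between the 2 scrambled controls 0 members passed (0.205% of all genes). Snrnp70 was at 227, 204, 247 and 235 CPM in Scrambled 1 and 0.19 above Scrambled 2 (SE 0.09, adjusted p = 0.418), and Rbm4b, at 40.8, 45.8, 46 and 50.3 CPM, was 0.21 above it. Without Scrambled 2 replicate 4, 1 member passed.

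At day 6 the oil vehicle changed 6 of the 46 genes against saline, 2 upward and 4 downward. That is 13% of the members against 10.6% of all 14107 genes (3.33% higher and 7.29% lower), near the background. The genes that rose were the SR proteins Srsf2 and Srsf6, and those that fell were the U5 proteins Prpf8 and Snrnp200, the helicase Ddx46 and the speckle scaffold Srrm2. Prpf8 was at 290, 303, 289 and 322 CPM in saline and at 241, 258, 241 and 217 CPM in Miglyol lungs, with no overlap (log2 fold change -0.34, SE 0.08, adjusted p = 0.0166). Srsf2, with shared reads, was at 326, 314, 318 and 290 CPM in saline and at 378, 352, 371 and 383 CPM in Miglyol lungs, all above saline (0.25, SE 0.06, adjusted p = 0.0206). Srsf6 was at 329, 313, 367 and 346 CPM in saline and at 404, 376, 407 and 418 CPM in Miglyol, again without overlap (0.24, SE 0.06, adjusted p = 0.0250). Ddx46 was at 130, 129, 150 and 136 CPM in saline and at 118, 124, 116 and 105 CPM in Miglyol, all lower (-0.24, SE 0.07, adjusted p = 0.0298). Srrm2 showed the largest of the 6 differences, at 1057, 1001, 1083 and 1041 CPM in saline and 754, 861, 789 and 666 CPM in Miglyol lungs (-0.45, SE 0.13, adjusted p = 0.0350).

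All 12 SR and Tra2 genes lay above 0 with Miglyol (median 0.13, from Tra2b at 0.04 to Srsf2 at 0.25, 2 called), against a median of 0.02 over all genes. The summed level of 9 lung markers, none at 0, was 14946 to 16218 CPM in saline and 17002 to 21149 CPM in Miglyol lungs, with 2 of 9 called higher (Scgb1a1 and Sftpc), and its part in these differences was not tested. The tri-snRNP class had a median of -0.06 with 2 of 10 called lower, the branch point class -0.03 with 1 of 6, the speckle class -0.03 with 1 of 6, and the U1 (0.03), minor spliceosome (0.14) and RBM (-0.03) classes had 0 called. The 6 calls became 0 without Miglyol replicate 4 or saline replicate 4, 1 without Miglyol replicate 1, 2 without Miglyol replicate 3, 3 without saline replicate 2 and 9 without Miglyol replicate 2. With the intron share as a covariate 0 members passed, all 6 genes keeping their direction.

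Tamoxifen added to the oil gave 0 calls among the members (5.68% of all genes), 7 unadjusted p under 0.05 and a median of -0.01. Prpf38a, a protein of the B complex, had the smallest p, at 39.7, 43.1, 37.2 and 40.9 CPM in Miglyol and 35.9, 35.3, 35.0 and 32.7 CPM in tamoxifen lungs (log2 fold change -0.21, SE 0.08, adjusted p = 0.147). The values did not overlap, yet the adjusted p did not pass. Srsf7 was at 189, 166, 179 and 196 CPM in Miglyol and at 148, 175, 161 and 163 CPM with tamoxifen, overlapping (-0.17, SE 0.07, adjusted p = 0.156). Without tamoxifen replicate 2, 2 members passed.

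Tamoxifen in Miglyol against saline, which differ in both the drug and the oil and share libraries with both day 6 comparisons above, gave 4 higher and 2 lower members (13% of members against 23.7% of all genes, 11.3% higher and 12.3% lower). Srsf5, an SR protein with shared reads, was at 376, 376, 451 and 405 CPM in saline, at 469, 435, 473 and 506 CPM in Miglyol and at 483, 568, 474 and 496 CPM in tamoxifen lungs. The tamoxifen libraries lay above all saline ones (0.33, SE 0.08, adjusted p = 0.00531). Srsf2 was at 356, 403, 358 and 352 CPM with tamoxifen (0.24, SE 0.06, adjusted p = 0.0112). Sf3b3, a scaffold of the SF3B complex, was at 161, 159, 154 and 164 CPM in saline and 145, 133, 145 and 132 CPM with tamoxifen, without overlap (-0.20, SE 0.05, adjusted p = 0.0125). Rbm4, the least abundant member, with shared reads, was at 3.82, 3.59, 6.37 and 4.41 CPM in saline and 2.17, 2.79, 1.51 and 3.40 CPM with tamoxifen (-0.89, SE 0.25, adjusted p = 0.0173). Snrnp70 (0.23) and Srsf6 (0.19) also passed. The calls numbered 4 to 10 when 1 library was left out, 10 without tamoxifen replicate 4, and 1 with the intron share as a covariate.

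Day 14 lungs had lower levels of 34 of the 46 genes than day 6 lungs and a higher level of 1, Sf3b1. Over all 14406 genes 61.4% were called, 31.3% lower and 30% higher. All 12 SR and Tra2 genes fell (median -0.26). Srsf1, the founding SR protein (gene 110809, chr11:88046902-88053757), ranged from 295 to 388 CPM over the 20 day 14 libraries with a median of 336, and from 413 to 470 with a median of 439 CPM over the 12 day 6 libraries. The ages did not overlap (log2 fold change -0.39, SE 0.03, adjusted p = 5.39e-15). Srsf3 (chr17:29032660-29043372, shared reads) ranged from 264 to 347 CPM with a median of 301 at day 14 and from 363 to 455 with a median of 406 CPM at day 6, also apart (-0.43, SE 0.03, adjusted p = 1.66e-14). Srsf7 had medians of 133 and 167 CPM, and its ranges met at 148 CPM (-0.37, SE 0.03, adjusted p = 6.82e-13). Tra2b, an SR-like activator of exons with shared reads, ranged from 139 to 168 with a median of 152 CPM at day 14 and from 169 to 209 with a median of 191 CPM at day 6 (-0.31, SE 0.03, adjusted p = 1.34e-12).

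**Figure D4:**
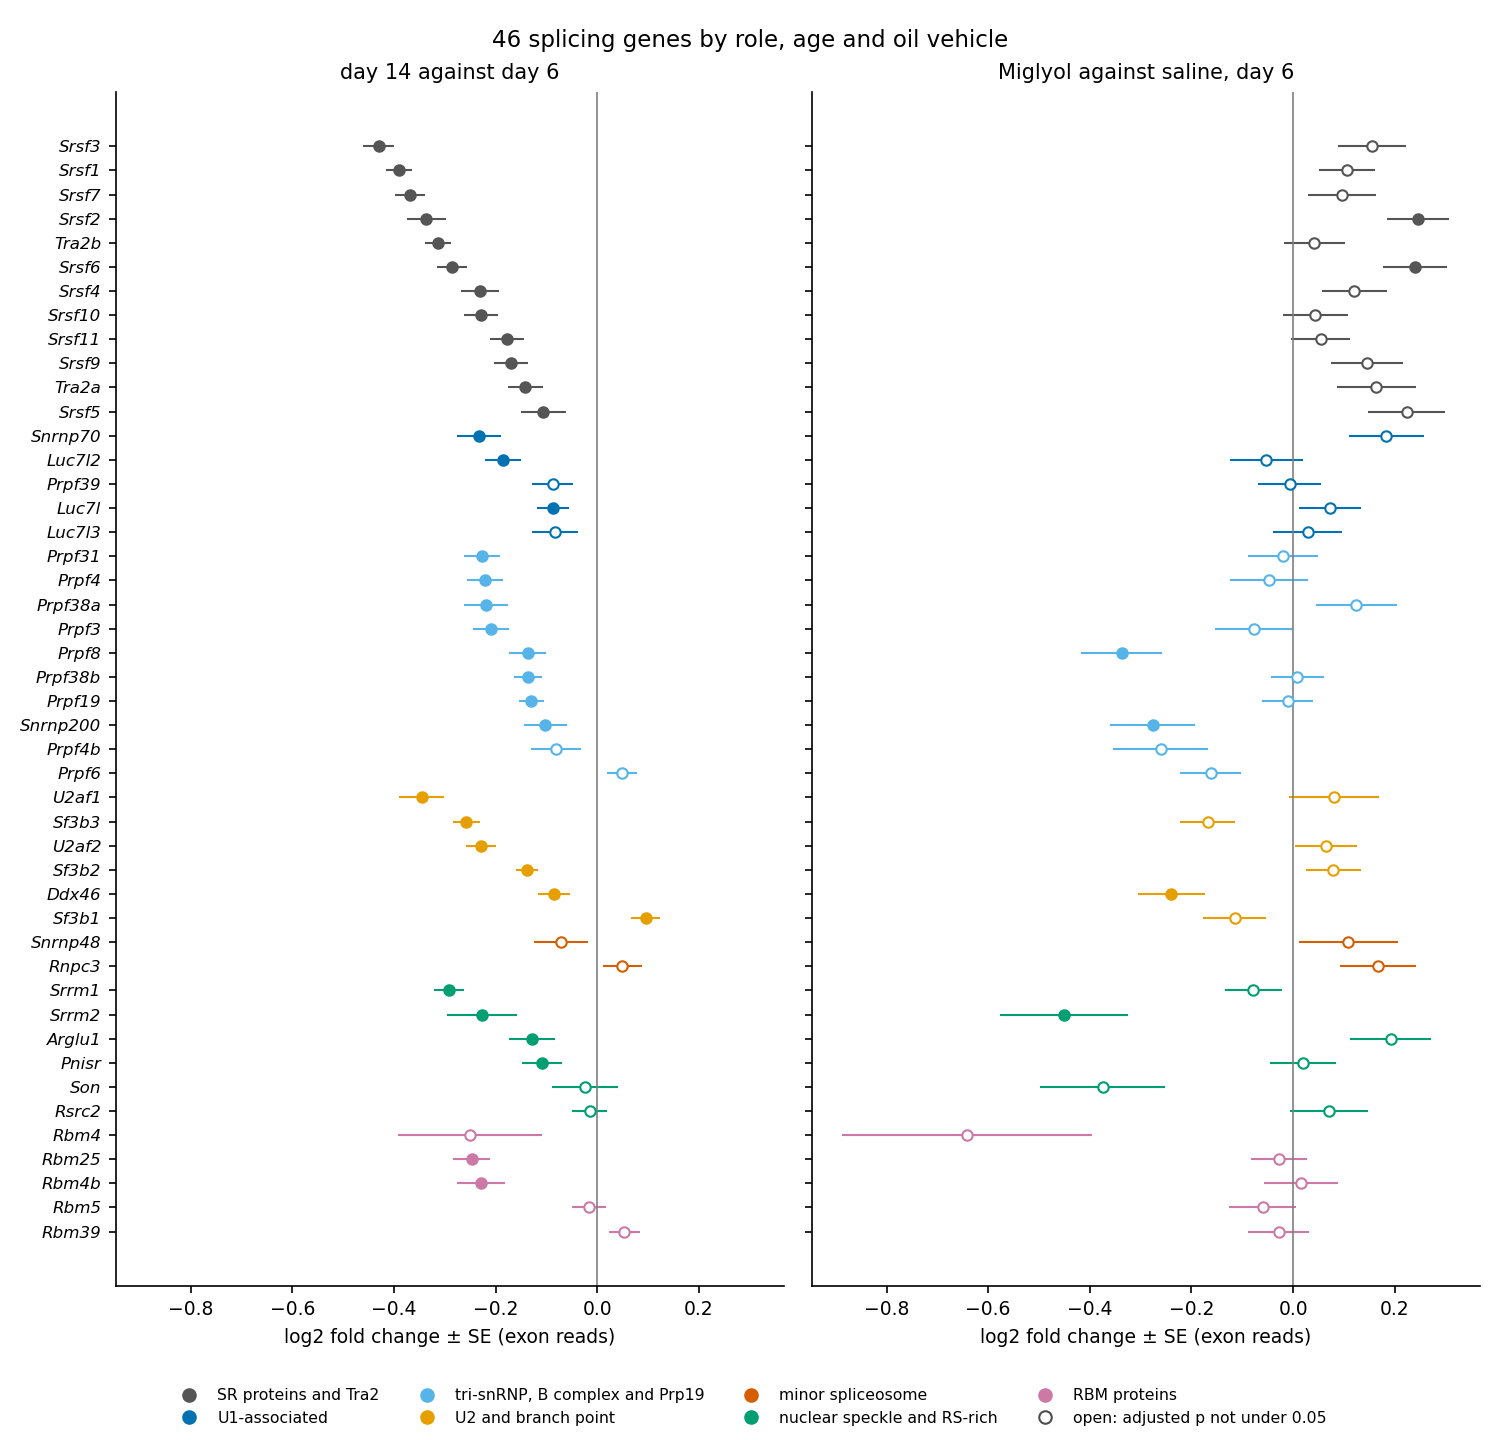
Log2 fold change ± SE of exon reads for the 46 splicing genes, day 14 against day 6 (left, 20 and 12 libraries) and Miglyol against saline at day 6 (right, 4 and 4 libraries), coloured by role; filled points passed the adjusted p of 0.05. All 12 SR and Tra2 genes are filled and left of 0 on the left (Srsf3 at -0.43 to Srsf5 at -0.11) and right of 0 on the right, where 2 are filled.

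Of the tri-snRNP class 8 of 10 fell (median -0.14; Prpf6 at 0.05 and Prpf4b at -0.08 did not pass), and of the branch point class 5 of 6 (median -0.18, lowest U2af1 at -0.35, shared reads) while Sf3b1 rose by 0.10, at medians of 598 CPM at day 14 and 548 CPM at day 6 with overlapping ranges. Of the U1 proteins 3 of 5 fell (median -0.09), of the speckle proteins 4 of 6 (median -0.12, lowest Srrm1 at -0.29), of the RBM proteins 2 of 5 (median -0.23) and of the minor spliceosome 0 of 2 (Snrnp48 at -0.07 and Rnpc3 at 0.05). The median of the members was -0.17 against -0.01 over all genes, and 4 members (Srsf1, Srsf3, Tra2b and U2af1) did not overlap between the ages with day 14 lower, against 4.8% of all genes. The summed level of 6 proliferation markers moved with age too, from 776 to 1193 CPM at day 6 to 238 to 380 CPM at day 14, and its part in these differences was not tested. Age cannot be told apart from the injections given at each age or from the agent used to kill the pups, and 31 to 38 members were called in all when any 1 of the 32 libraries was left out.

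Of the related genes outside the 46, the listed Sm and LSm proteins of the snRNP core had 0 of 18 called with daily saline in either comparison (medians -0.06 against untreated and 0.05 against water), and the 30 other spliceosome proteins had 0 called as well (0.01 and 0.04). Of 23 hnRNP and PTB genes 3 fell against untreated (Hnrnph3 at -0.38, Ptbp2 at -0.39 and Hnrnpdl at -0.33; 0.212% of all genes were lower) and 5 against water (1.71%). Of 8 kinases of SR proteins 1 fell in each, Clk4 at -0.49 and -0.49, and of 8 exon junction proteins tested 1, Pnn, at -0.40 and -0.46. With Miglyol all 18 Sm and LSm genes lay above 0 (median 0.26) but 0 passed, while 3 hnRNP genes rose (3.33% of all genes). With age 17 of 18 Sm and LSm genes, 20 of 23 hnRNP genes, 16 of 30 other spliceosome genes and 8 of 8 exon junction genes fell from day 6 to day 14 (31.3% of all genes), and 4 of the 30 rose (30% of all genes).

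Intron reads were tested in 45 members. Scaled to each library's exon reads in the same way as the exon CPM (intron CPM), 22 of the 45 fell against untreated lungs (16.9% of 12344 genes), with a member median of -0.47 against -0.42 over all genes. Intron reads of Rbm25, which acts on the choice of splice site at the start of an intron, were at 54.1, 64.5, 61.2 and 87.8 intron CPM in untreated lungs and at 33.4, 38.2, 42.3 and 48.8 in daily saline lungs. The groups did not overlap (log2 fold change -0.72, SE 0.16, adjusted p = 0.0293). Those of Prpf6, a bridge of the tri-snRNP, were at 11.5, 14.0, 15.1 and 18.9 against 7.90, 9.37, 9.14 and 10.2 (-0.70, SE 0.19, adjusted p = 0.0323). Srsf6 (52.5, 59.9, 57.7 and 78.5 against 36.1, 39.8, 49.5 and 40.1) and U2af2 (45.4, 51.2, 54.0 and 70.7 against 29.9, 36.4, 37.6 and 42.8, shared reads) each fell by 0.59 on the log2 scale. None of these 4 genes, picked by smallest p, overlapped between the groups. For intron reads, overlap was not counted over all genes. When intron reads were scaled among themselves, 0 members and 2 genes passed and the member median was -0.06. Without 1 library at a time 0 to 37 members passed.

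Against water, 40 of 45 members had lower intron reads (63.3% of genes; medians -0.62 and -0.59), and 0 of 45 when intron reads were scaled among themselves. U2af2 was at 53.0, 80.1, 69.8 and 62.3 intron CPM in water (log2 fold change -0.86, SE 0.17, adjusted p = 0.000419). Intron reads of Prpf8 were at 8.88, 10.8, 7.43 and 8.58 in water and 2.88, 4.05, 5.08 and 4.82 in daily saline lungs (-1.09, SE 0.22, adjusted p = 0.000419), while its exon reads differed by 0.01. Rbm25, at 59.3, 88.0, 62.7 and 76.7 in water, and Snrnp70, at 212, 240, 215 and 215 in water and 123, 121, 142 and 145 in daily saline lungs, fell by 0.82 and 0.74. In all 4 genes, again picked by smallest p, every daily saline library lay below every water library. Overlap was not counted over all genes here either.

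The ratio of intron to exon reads was also lower with daily saline, in the members by a smaller median than over all genes. Against untreated lungs it fell in 3 of 45 members (13.4% of 12017 genes), Prpf8, Prpf6 and U2af2, with a median of -0.25 over the members and -0.40 over all genes. The intron share of Prpf8 was 2.25, 3.20, 2.90 and 3.17% in untreated lungs and 1.16, 1.63, 2.06 and 1.83% in daily saline lungs, without overlap (log2 change of the ratio -0.82, SE 0.22, adjusted p = 0.0273). Against water it fell in 21 of 45 (58.1% of genes), with medians of -0.35 and -0.57. Prpf8 was at 3.65, 4.13, 3.00 and 3.20% in water (-1.10, SE 0.22), followed by Sf3b2 (-0.85), Prpf6 (-0.84) and U2af2 (-0.73). When intron and exon reads were each scaled among themselves, the split turned from 0 higher and 21 lower to 7 higher and 0 lower (median 0.23), and against untreated lungs 0 members passed (median 0.15).

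With Miglyol 3 of 45 members had lower intron reads than with saline (11.6% of 12314 genes; medians -0.16 and -0.24): the SR protein Srsf4, Prpf39 and Srrm2. Srsf4 intron reads were at 62.9, 59.9, 69.3 and 73.9 intron CPM in saline and 42.7, 50.7, 44.8 and 29.0 in Miglyol lungs, without overlap (log2 fold change -0.68, SE 0.19, adjusted p = 0.0222, shared reads). Prpf39 was at 39.1, 39.3, 46 and 49.7 against 31.9, 33.5, 33.1 and 22.9 (-0.53, SE 0.16, adjusted p = 0.0334, shared reads). The intron-to-exon ratio fell in 4 (8.23% of genes): Srsf4, Tra2a, Srsf11 and Prpf39. The intron share of Tra2a, which activates exons beside Tra2b, was 49.6, 49.6, 48.9 and 51.9% in saline and 36.5, 44.0, 38.7 and 28.8% in Miglyol lungs, all lower (-0.78, SE 0.20, adjusted p = 0.0194), and that of Srsf4 was 39.9, 37.8, 43.2 and 46.3% against 29.7, 34.6, 30.8 and 21.5% (-0.81, SE 0.19, adjusted p = 0.0130). Miglyol replicate 4 was the lowest library for each. With each read type scaled among itself, intron reads gave 6 higher and 1 lower member and the ratio 4 higher and 2 lower. Over all genes, 567 to 1637 were called in either direction under the 5 alternative settings for intron reads. Under the 3 for the ratio, 744 to 1060 were called. Without 1 library at a time the counts ran from 0 to 9 for intron reads and from 0 to 5 for the ratio.

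With age 21 members had fewer intron reads at day 14 and 1, Sf3b1, more (32.9% of 12693 genes fewer and 10.1% more; medians -0.19 and -0.14). The largest of the first 4 by p was Srsf10 at -0.39, followed by U2af1 (-0.36), Sf3b3 (-0.35) and Srsf7 (-0.33). With intron reads scaled among themselves the split was 10 higher and 10 lower. Over all genes, 5170 to 5845 were called in either direction under the 5 alternative settings for intron reads. The ratio rose with age in Srsf3 (0.24), Luc7l3 (0.28) and Sf3b1 (0.21) and fell in Prpf6 (-0.35) and Prpf19 (-0.31). Of 12358 genes 3.49% rose and 21.7% fell, and the medians were 0.00 over the members and -0.13 over all genes. With each type scaled among itself 20 members were higher and 1 was lower. Over all genes, 2851 to 3136 were called in either direction under the 3 alternative settings for the ratio.

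Within groups, the exon level of some members moved with the intron share of the library. At day 14 the slope on the intron share, fitted within the 5 groups, passed the test above 0 in 10 of 46 members and below 0 in none (1.75% of all genes called, 1.21% with a slope above 0 and 0.536% below). The smallest p-value was that of Srrm2, with 0.14 log2 units per percentage point of intron share (SE 0.02, adjusted p = 9.3e-05), followed by Son with 0.12 (SE 0.02, adjusted p = 0.000542), the kinase Prpf4b with 0.08 (adjusted p = 0.0102) and Rbm4b with 0.10 (adjusted p = 0.0130). Pnisr, Srrm1, Luc7l3, Rnpc3, Prpf38b and Luc7l2 also passed. In Srrm2 the water libraries with the highest and lowest intron share were at 983 and 780 CPM, and the untreated ones at 1033 and 633 CPM. At day 6 the slope passed above 0 in 5 members, Son (0.17, SE 0.02, adjusted p = 0.000629), Prpf4b (0.13, adjusted p = 0.00191), Srrm2 (0.15, SE 0.03, adjusted p = 0.00376), Prpf8 (0.08, adjusted p = 0.0254) and Ddx46 (0.07, adjusted p = 0.0282), and below 0 in U2af1 (-0.09), against 10.7% of all genes, 6.06% above 0 and 4.62% below. Of the 12 SR and Tra2 genes 0 passed at either age, with Srsf3 at -0.03 at day 14. The slopes of Srrm2 and Son passed in each of the 20 fits of day 14 and the 12 of day 6 that left out 1 library.

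**Figure D5:**
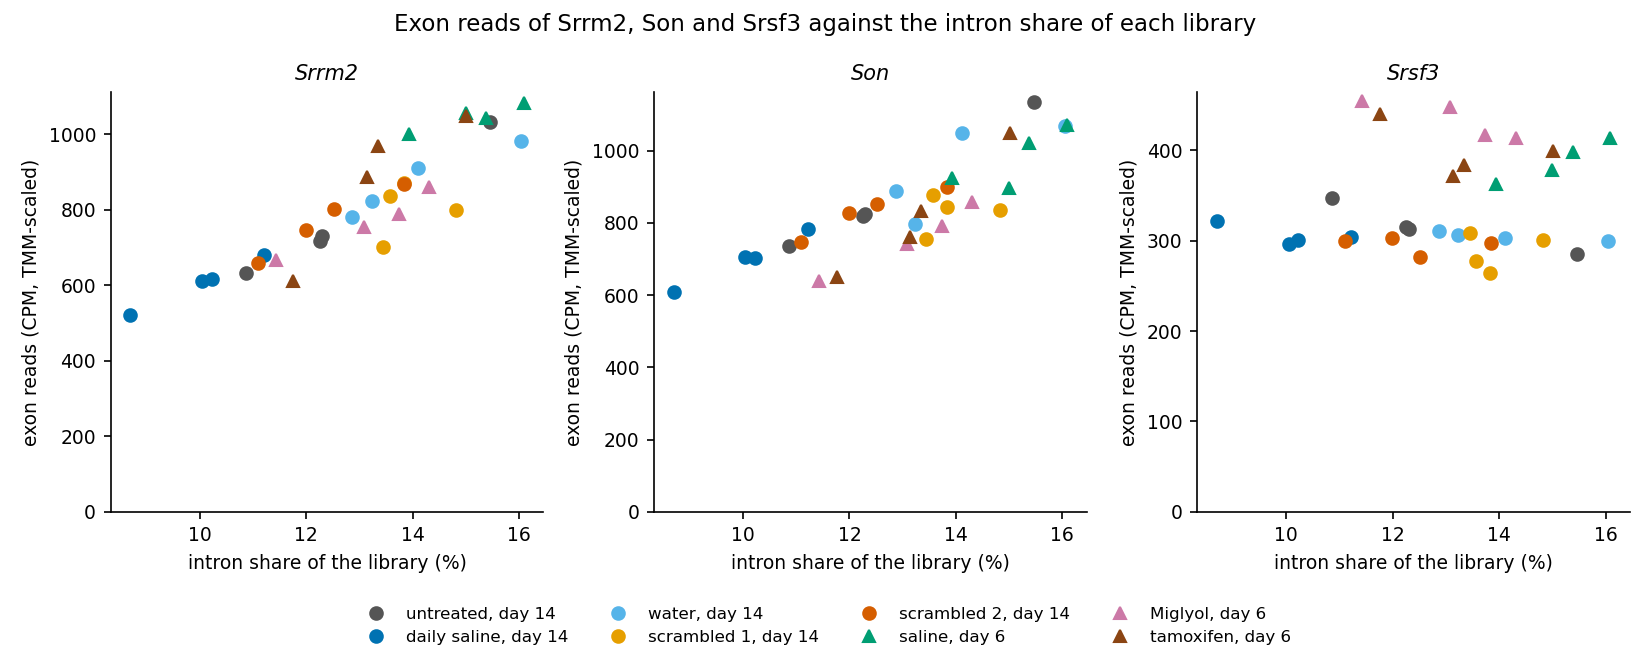
Exon reads (CPM, TMM-scaled) of Srrm2, Son and Srsf3 against the intron share of the library (percent), 1 point per library; circles are day 14 and triangles day 6, coloured by group. Srrm2 and Son climb with the intron share within groups of both ages, with slopes of 0.14 and 0.12 log2 units per percentage point at day 14, whereas Srsf3 separates by age and had a slope of -0.03 at day 14.

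The number of day 14 slopes ranged from 2 to 15 when 1 library was left out: 5 without untreated replicate 1, 2 without untreated replicate 4, 5 without water replicate 2 and 15 without Scrambled 2 replicate 4. At day 6 it ranged from 3 to 9, with 3 without Miglyol replicate 2, Miglyol replicate 4 or tamoxifen replicate 2.

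Over all 8 groups, the lowest group mean of exon CPM was daily saline in 34 of the 46 genes, Scrambled 1 in 8, Scrambled 2 in 2, and Miglyol and untreated in 1 each. The highest group mean belonged to a day 6 group in 37 genes (Miglyol in 14, tamoxifen in 12 and saline in 11), to untreated lungs in 8 and to water in 1. The order of group means was worked out for the 46 genes only, so these counts have no background over all genes. The spread within groups was often larger than the distance between neighbours in this order: Rnpc3, for example, was at 43.0, 42.5, 49.0 and 44.0 CPM in saline, 49.1, 51.3, 53.5 and 47.3 CPM in Miglyol and 45.7, 45.8, 39.7 and 48.2 CPM in tamoxifen lungs, and at 51.6, 48.5, 50.3 and 51.7 CPM in Scrambled 1 and 51.2, 40.1, 45.4 and 50.1 CPM in Scrambled 2. Only the daily saline lungs, at 37.9 to 42.6 CPM, lay mostly below these.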

How the data were processed

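Polyadenylated RNA of 32 mouse lungs was sequenced as stranded libraries, per the labels' protocols, and, per the submitters' processing notes, bcl2fastq 2.0 separated the libraries. The aligner, counter and build were not given in the sources used here. For each library the authors deposited counts of reads per gene in exons, introns and exon junctions, and TPM values, per the file headers. The total counts were used for tests and the authors' TPM only for levels between genes.

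Exon counts were tested with edgeR 4.0.16 in R 4.3.3 by its robust quasi-likelihood test, after filterByExpr and TMM scaling, with Benjamini-Hochberg adjustment over all genes and a threshold of 0.05, in 1 fit per age (20 libraries of day 14, 12 of day 6) and in a fit of all 32 for age. CPM values are TMM-scaled over the 32 libraries. Each SE was obtained from the log2 fold change and its F statistic (change over root F). Intron counts of genes with exon records were tested on the exon libraries' effective sizes, and the intron-to-exon ratio as a read type by group term with the library as a block. Slopes were fitted on each library's intron share within groups. The exon fits and the day 14 slope fit were tested on simulated data. The simulated intron and ratio fits scaled intron counts among themselves, so the exon-scaled fits reported above were not simulated. DESeq2 1.42.0 and the other alternatives are in the closing section.

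The members and lists were chosen with earlier results of these data known. Per exon comparison, values in every library are given for up to 4 called members of smallest p, or the 2 of smallest p where none passed, per role class the counts, median and extremes, for intron reads the 6 members of highest share, and for other lists up to 3 called genes. Replicate pairs differed by a chi-square of 2.38 to 16.6 per gene over 48 pairs, so none was a duplicate. Depth of 7918537 to 12443221 exon reads per library sets the precision. Promoter sequences are from RefSeq (GRCm38.p6) and transcript types from GENCODE M21.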

Additional observations from a re-analysis of the deposited data

Results flagged for a closer look

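In 8 of 116 groups of 4 libraries, 1 library stood further from the others than a test for a single stray value allows at the 95% level, where chance gives about 1 in 20. Untreated replicate 4 had 1.05% of its exon reads in the 46 splicing genes, against 0.924 to 0.945% in the other untreated libraries, and 59.9 CPM of Rnpc3 against 50.6 to 52.2. It also had the highest intron share of its group, 15.5%. Miglyol replicate 4 had 1.03% of its exon reads in the splicing genes, below the other 3 Miglyol libraries, and the lowest intron share of its group, 11.4%. Daily saline replicate 4 had 42.6 CPM of Rnpc3 against 37.9 to 38.2 in the rest of its group, with the highest intron share there, 11.2%. Tamoxifen replicate 2 had 403 CPM of Srsf2 against 352 to 358. For single genes, the intron share of U2af1 was 57.2% in water replicate 2 against 46.6 to 47.2%, that of Snrnp48 was 62.2% in day 6 saline replicate 4 against 64.4 to 64.6%, and that of Snrnp70 was 42.6% in day 6 saline replicate 2 against 46.3 to 46.7%.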

How the results depend on the processing

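For single named members, 434 values under other settings kept their direction and their side of the threshold, 47 lost the call and 0 changed direction, apart from the fits that left out 1 library. DESeq2 raised the calls of daily saline against untreated to 17 members and 80 genes, and gave 23 genes for water against untreated, 87 and 5 genes for Scrambled 1 and Scrambled 2 against water, 62 for Scrambled 1 against Scrambled 2 and 464 for the day 14 slope. With Xist as a covariate 7 members passed for daily saline against untreated, and 0, 2 and 13 genes for water against untreated, Scrambled 1 against water and Scrambled 1 against Scrambled 2, and the day 14 slope had 155 genes. Counting exon and intron reads together left 6 members and 15 genes against untreated, and gave 1111 genes for daily saline against water and 28 for Scrambled 1 against water.

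With the intron share of the library as a covariate, daily saline against untreated had 0 members and 0 genes, daily saline against water 0 and 13, Miglyol against saline 0 and 2, and tamoxifen against saline 1 and 1190, and the genes called were 11 for water against untreated, 30 for Scrambled 1 against water, 64 for Scrambled 1 against Scrambled 2 and 1268 for tamoxifen against Miglyol. A fit of all 32 libraries gave 53 genes for daily saline against untreated, 17 between the scrambled controls and 2271 for Miglyol. A fit of only the 8 libraries compared gave 75 genes for daily saline against untreated, 1 for water against untreated, 6 between the scrambled controls, 488 for tamoxifen against Miglyol, and 12 members and 2573 genes for Miglyol. Apart from the fewer samples in these last fits, the cause was not tested.

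Intron reads scaled among themselves gave 0 members and 2 genes for daily saline against untreated, 0 and 307 against water, and 7 members for Miglyol. The ratio with each read type on its own scale gave 0 members and 14 genes against untreated, 7 and 345 against water, and 21 members for age, where unique reads alone gave 3. By construction these scales remove the difference in intron share between libraries.

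In 0 of 9 comparisons did every pair of same-numbered samples have a correlation of deviations over 0.1 (range -0.391 to 0.494), so the numbers were not treated as pairs. For daily saline against untreated (0.00858 to 0.257) and Scrambled 2 against water (0.0161 to 0.340) all 4 were above 0 and 3 were over 0.1. In 0 of 9 comparisons did every sample correlate best with its own number. With the replicate number as a block, 10 members passed for daily saline against untreated, 22 against water, 0 for Miglyol (461 genes), 4 for tamoxifen against saline and 35 for age. The block gave 18 genes between the scrambled controls, 0 members and 567 genes for Miglyol intron reads, 2 members and 5 genes for the day 14 slope and 728 genes for the day 6 slope.

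Leaving out 1 library at a time, members and genes called ranged as follows. Daily saline against untreated had 1 to 4 and 1 to 9, daily saline against water 1 to 18 and 28 to 276, and water against untreated 0 members and 1 to 9 genes. Scrambled 1 against water had 0 members and 3 to 39 genes, Scrambled 2 against water 0 and 0 to 1, and Scrambled 1 against Scrambled 2 0 to 1 and 0 to 205. Miglyol against saline had 0 to 9 and 308 to 1729, tamoxifen against Miglyol 0 to 2 and 429 to 1188, tamoxifen against saline 4 to 10 and 1990 to 3924, and age 31 to 38 and 8640 to 8965. For intron reads the ranges were 0 to 37 and 0 to 5081 against untreated, 26 to 41 and 4847 to 8248 against water, 0 to 9 and 118 to 2207 for Miglyol, and 15 to 26 and 4854 to 6133 for age. For the ratio they were 0 to 10 and 0 to 4384 against untreated, 8 to 24 and 4170 to 7516 against water, and 0 to 5 and 137 to 1693 for Miglyol; the age ratio was not run without single libraries. The slopes had 2 to 15 and 15 to 556 at day 14, and 3 to 9 and 211 to 1761 at day 6.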

Other observations

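The share of the 46 genes' exon reads that spanned an exon junction, a value that enters no comparison above, averaged 24.4% in untreated, 25.3% in daily saline, 24.7% in water, 24.1% in Scrambled 1 and 25.1% in Scrambled 2 lungs at day 14, and 25.4% in saline, 24.2% in Miglyol and 24.3% in tamoxifen lungs at day 6. Libraries of a group differed, from 23.9 to 26.0% in Scrambled 2. Over all exon reads this share also varied between groups. It was 23.8 to 24.9% in untreated, 24.6 to 25.2% in daily saline and 26.6 to 27.3% in day 6 saline libraries. These differences were not tested. Of the 20 genes that fell with daily saline against water, 18 have an annotated nonsense-mediated decay transcript (90%), against 15 of the other 26 members (57.7%), a description chosen after the values were seen. The 20 genes also have more annotated transcripts, with a median of 10 against 8, and the part of this was not tested. A retained intron transcript is annotated for 95% of them, against 84.6% of the other 26.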
